A study of Homo sapiens with 84 samples.

Results

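The genes described here were 48 factors of ribosome biogenesis, sorted by the assembly step they serve, out of 58395 genes counted. They comprised 7 genes of RNA polymerase I (Pol I) transcription, 4 proteins of box C/D particles, 4 of H/ACA particles, 4 nucleolar proteins shared between steps, 15 factors of the small subunit and 14 of the large subunit. Membership was set by the function of each gene and not by its values, though with earlier results of these data known. All 48 genes passed the filter on low counts in both cell lines.

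Ribosomes are made in the nucleolus, where Pol I transcribes the long precursor of the ribosomal RNAs. Box C/D particles guide methylation of this RNA and H/ACA particles guide its conversion of uridine to pseudouridine, while assembly factors fold, cut and export the small and large subunits. Growth factor signalling is known to raise ribosome production in proliferating cells, and MYC, which binds the E-box letters CACGTG, is a known activator of many genes of this pathway.

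Expression was measured in 2 human carcinoma cell lines, Kyse30 from the esophagus and FaDu from the hypopharynx, by 3′ mRNA sequencing, in which a transcript gives about the same number of reads whatever its length, so that counts per 1000000 counts of the library (CPM) can be compared between genes. All cells were serum-starved before and during treatment. They stayed untreated, received EGF at 1.8 nM (EGFlow) or 9 nM (EGFhigh), the immunoglobulin Fc part alone (Fc), the extracellular domain of EpCAM fused to Fc (EpEX), or EGFhigh and EpEX together, and were collected after 6 h or 72 h, with untreated cells at 0 h as a start point. Untreated cells were the control of EGF and Fc that of EpEX and of the combination. The labels do not say whether replicates were separate cultures, so that p-values measure the spread between libraries, which may be technical. 

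Kyse30 had 43 libraries, with 4 replicates of EGFlow at 6 h and at 72 h and of EGFhigh and EGFhigh + EpEX at 6 h, and 3 of each other group. FaDu was described by the 20 libraries of replicates 3 and 4, which gave 2 libraries of each 6 h group except the combination, 2 of Fc and of the combination at 72 h and 1 of every other group, and groups of 1 entered no comparison. The 21 FaDu libraries of replicates 1 and 2 stood apart. The median rank correlation over 19281 genes was 0.956 within replicates 3 and 4, 0.846 within replicates 1 and 2 and 0.835 between these sets, against 0.865 between Kyse30 and FaDu replicates 3 and 4. Gene counts ran from 1944948 to 11759799 per Kyse30 library and from 6217938 to 12442349 per FaDu library of replicates 3 and 4. A count of 3 corresponded to between 0.255 and 1.54 CPM in Kyse30 and to between 0.241 and 0.482 CPM in FaDu.

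The epithelial markers EPCAM, with a median of 216 CPM in Kyse30 and 371 CPM in FaDu, and SFN, with 772 and 541 CPM, were present in every library. The basal keratin gene KRT5 was low in Kyse30, with a median of 2.07 CPM against 208 CPM in FaDu, and KRT14 was at 0 in 3 Kyse30 libraries. Of the markers of fibroblasts, endothelium and immune cells, DCN, LUM, PECAM1, PTPRC, CD3E and MS4A1 had a median of 0 CPM in both lines, and the most abundant by median was COL1A1, with 14.3 CPM in Kyse30 and 8.58 CPM in FaDu. COL1A2 had medians of 4.99 and 0.366 CPM and CDH5 of 1.77 and 4.59 CPM. CPM are shares of each library, so that neither the number of cells nor the total RNA per cell can be read from them. In these bulk libraries a change in the share of cells that express a gene cannot be told apart from a change in its RNA per cell.

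Promoters are shown to let the letters before and around the start sites be read beside the values. RefSeq start sites (GRCh38.p14) gave 47 windows of 300 bases, 250 before and 50 after the start, for 40 of the 48 genes. Searched on both strands, the E-box CACGTG, which reads the same on both, was in 19 of 47 windows (40.4%), against 7.26% of all 35116 windows of that length and 8.34% of those of protein-coding genes. It was in 0 of 9 windows of Pol I genes, which came from 6 genes, 2 of 3 of box C/D, 2 of 5 of H/ACA, 1 of 5 of shared nucleolar, 8 of 13 of small-subunit and 6 of 12 of large-subunit genes. The ETS letters CCGGAAG were also in 19 windows (40.4%), against 10.3% of all windows and 12.8% of those of protein-coding genes. They were in 6 of 9 windows of Pol I, 2 of 3 of box C/D, 2 of 5 of H/ACA, 1 of 5 of shared nucleolar, 3 of 13 of small-subunit and 5 of 12 of large-subunit genes. The AP-1 letters TGANTCA, in which N is any base, were in 1 window (2.13%, against 7.71% of all and 6.15% of protein-coding windows), and the GC box GGGCGG was in 34 (72.3%, against 45% and 56.3%). These shares, from few windows a step, are descriptions of letters and not of binding and were not tested, and the 4 motifs can lie in 1 window together. An E-box was in 7 of 11 genes called higher after EGFhigh at 6 h in Kyse30 and in 12 of 29 genes not called. Among those called, RRP9, UTP20 and WDR43 had it close to the start, and of these WDR43 alone was also called in FaDu. RRP9, UTP20, WDR43 and POLR1C, a Pol I gene with ETS letters, are given here 5′ to 3′ on the strand of the gene. Capitals mark the E-box or, for POLR1C, the ETS letters, and all else, GC boxes included, is in lower case. The printed stretch stands beside the name.
RRP9 (chr3:51941875-51942024, minus strand): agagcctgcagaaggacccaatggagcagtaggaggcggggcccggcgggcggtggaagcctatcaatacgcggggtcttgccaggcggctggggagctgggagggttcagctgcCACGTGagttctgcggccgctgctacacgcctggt
UTP20 (chr12:101279985-101280134, plus strand): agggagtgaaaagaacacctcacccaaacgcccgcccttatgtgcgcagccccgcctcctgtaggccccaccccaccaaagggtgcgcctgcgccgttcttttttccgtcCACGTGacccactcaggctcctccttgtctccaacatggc
WDR43 (chr2:28894547-28894696, plus strand): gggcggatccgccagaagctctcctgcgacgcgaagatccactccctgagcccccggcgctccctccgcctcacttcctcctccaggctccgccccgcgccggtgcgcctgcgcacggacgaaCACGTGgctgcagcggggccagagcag
POLR1C (chr6:43516839-43516988, plus strand): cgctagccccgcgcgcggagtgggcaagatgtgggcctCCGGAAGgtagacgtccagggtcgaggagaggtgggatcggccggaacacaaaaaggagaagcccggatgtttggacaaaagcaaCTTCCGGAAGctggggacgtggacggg
The E-box began 5 bases before the start in RRP9, 10 before in UTP20 and 3 after in WDR43. The ETS letters of POLR1C began 212, 127 and 124 bases before the start, and the last 2 of these matches overlapped on opposite strands.

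The first question was which assembly steps responded to EGF at 6 h. In Kyse30, EGFhigh raised 12 of the 48 genes and lowered 0 (adjusted p of at most 0.05 and a log2 fold change over 0.5 in size, edgeR's quasi-likelihood test over 15350 genes). These 12 comprised 7 of 15 small-subunit factors, 2 of 14 large-subunit factors, RRP9 of box C/D, DKC1 of H/ACA and DDX21 among the shared proteins, but 0 of 7 Pol I genes, of which 2 had an unadjusted p under 0.05 (15.2% of all genes did). Of all genes tested, 1.34% were called higher and 1.21% lower. The log2 fold change was above 0 in 47 of the 48 genes, with a median of 0.68, where the median of all genes was −0.05. Median log2 fold changes were 0.35 for Pol I, 0.60 for box C/D, 0.46 for H/ACA, 0.50 for the shared proteins, 0.89 for the small subunit and 0.74 for the large subunit. No test of the difference between steps was made. Without untreated replicate 1 the count of called genes was 5, without untreated replicate 4 it was 2 and without EGFhigh replicate 2 it was 6. With untreated and Fc libraries together as control it was 28.

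**Figure D1:**
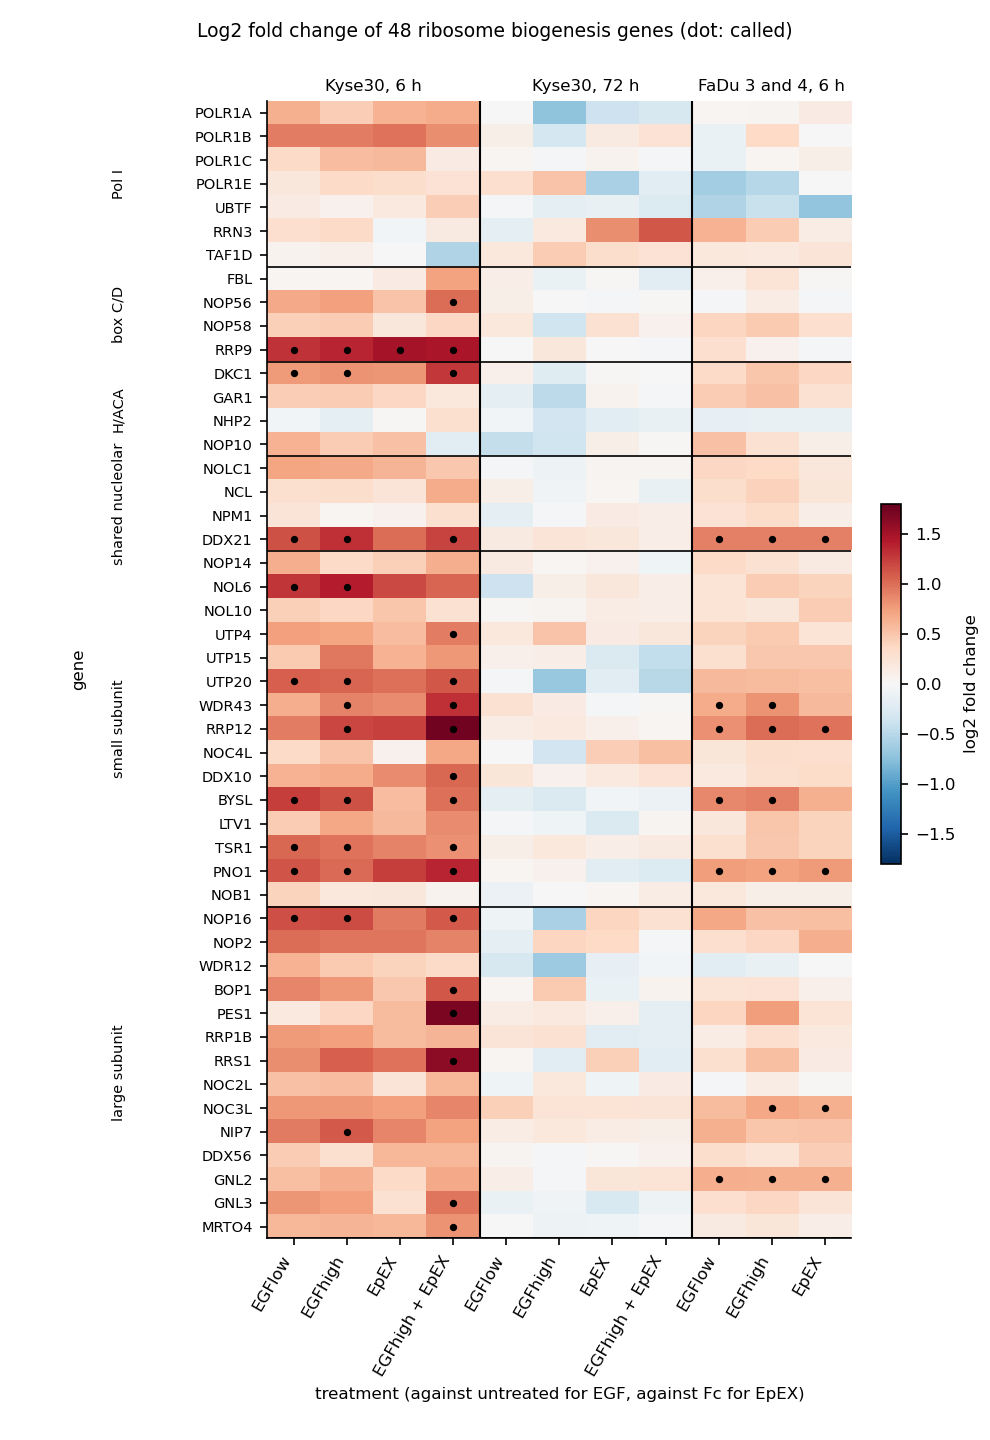
Log2 fold changes of the 48 genes (rows, by assembly step) in 11 comparisons (columns), from blue for lower to red for higher, with a dot where the gene was called. At 6 h the Kyse30 columns were red over nearly all rows, at 72 h they held no dot, and in every column the Pol I rows held no dot.

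Among the Pol I genes, POLR1B, the second-largest subunit of the enzyme, had the lowest adjusted p. It was at 25.7, 28.5 and 28.5 CPM in untreated Kyse30 cells at 6 h and at 39.4, 51.7, 57.6 and 59.0 CPM after EGFhigh. All treated libraries lay above all untreated ones, yet the log2 fold change of 0.92 (95% interval 0.38 to 1.45) missed the threshold at an adjusted p of 0.0601. POLR1C, a subunit shared with RNA polymerase III, was at 28.1, 29.9 and 39.6 CPM untreated and at 35.3, 50.1, 51.1 and 55.1 CPM after EGFhigh, and these groups overlapped (log2 fold change 0.56, edgeR adjusted p 0.231). UBTF, which binds ribosomal DNA and opens it for Pol I, was at 58.4, 90.2 and 108 CPM untreated and spread from 48.6 to 114 CPM after EGFhigh (log2 fold change 0.07, interval −0.49 to 0.64).

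The particle proteins differed within each class. RRP9, which binds the U3 box C/D RNA needed for small-subunit processing, was at 17.7, 21.5 and 21.5 CPM untreated and at 35.0, 50.7, 52.7 and 70.6 CPM after EGFhigh. This was 2.59-fold higher (log2 fold change 1.37, interval 0.87 to 1.87, edgeR adjusted p 0.00188), with no overlap between the groups. NOP56, a core box C/D protein, was at 147, 153 and 264 CPM untreated and between 219 and 414 CPM after EGFhigh (log2 fold change 0.73, edgeR adjusted p 0.199). FBL, the methyltransferase of the same particles, was at 410, 502 and 658 CPM untreated and between 430 and 628 CPM after EGFhigh, with a log2 fold change of 0.04 (interval −0.39 to 0.48).

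Of the H/ACA proteins, DKC1, the pseudouridine synthase, was called. It was at 290, 316 and 425 CPM untreated and at 511, 558, 660 and 681 CPM after EGFhigh, 1.75-fold higher (log2 fold change 0.81, interval 0.43 to 1.19, edgeR adjusted p 0.0142). GAR1 had a log2 fold change of 0.45 (edgeR adjusted p 0.478) and NHP2, whose last 500 bases overlap RMND5B on the other strand, one of −0.16 (interval −0.55 to 0.23). DKC1 thus stood above its untreated libraries while its partner NHP2, at 136 to 179 CPM after EGFhigh and 138 to 221 CPM untreated, overlapped them.

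Of the shared proteins, DDX21, an RNA helicase of the nucleolus, was at 315, 499 and 563 CPM untreated and at 1039, 1146, 1195 and 1206 CPM after EGFhigh. It was 2.50-fold higher (log2 fold change 1.32, interval 0.80 to 1.84, edgeR adjusted p 0.00388). NOLC1, a chaperone of nucleolar particles, had a log2 fold change of 0.68 (edgeR adjusted p 0.146). NPM1, an abundant nucleolar chaperone with 45 named pseudogenes whose reads may not be told apart, was at 1999, 2141 and 2214 CPM untreated and between 2098 and 2316 CPM after EGFhigh (log2 fold change 0.04, interval −0.25 to 0.33).

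Small-subunit factors held most of the calls. TSR1, which acts late on the pre-40S particle, was at 66.6, 77.0 and 82.7 CPM untreated and at 123, 139, 161 and 168 CPM after EGFhigh (1.96-fold, log2 fold change 0.97, interval 0.59 to 1.35, edgeR adjusted p 0.00326). BYSL, another late factor, was at 19.2, 20.2 and 27.3 CPM untreated and at 36.4, 43.6, 49.3 and 66.7 CPM after EGFhigh (2.20-fold, edgeR adjusted p 0.0116). In both genes every treated library exceeded every untreated one. NOL6, UTP20, WDR43, RRP12 and PNO1 were the other called factors, with log2 fold changes between 0.89 for WDR43 and 1.41 for NOL6. NOB1, the endonuclease that makes the 3′ end of 18S RNA, was at 63.4, 78.1 and 97.0 CPM untreated and between 74.9 and 101 CPM after EGFhigh (log2 fold change 0.19, interval −0.22 to 0.60).

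Called factors of the large subunit were NOP16 and NIP7. NOP16 was at 44.6, 47.1 and 64.0 CPM untreated and at 91.1, 108, 131 and 140 CPM after EGFhigh (2.26-fold, log2 fold change 1.18, edgeR adjusted p 0.0111). NIP7 was at 21.2, 34.8 and 41.9 CPM untreated and at 49.9, 57.8, 77.6 and 95.5 CPM after EGFhigh (2.15-fold, edgeR adjusted p 0.0249). Neither gene overlapped between the groups. PES1, which forms a complex with BOP1 and WDR12, was at 56.1, 58.4 and 59.5 CPM untreated and between 60.1 and 93.2 CPM after EGFhigh (log2 fold change 0.37, interval −0.26 to 1.00). Over all steps, 27 of the 48 genes had every EGFhigh library above every untreated one, against 7.22% of all genes.

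EGFlow, which shared the untreated libraries, raised 9 of the 48 genes and lowered 0, where 0.814% of all genes were called higher and 0.684% lower. Small-subunit factors made up 5 of the 9, and each of box C/D, H/ACA, the shared proteins and the large subunit added 1. Pol I again had 0, with 2 genes at an unadjusted p under 0.05 (13.7% of all genes). The count was 2 without untreated replicate 1, 1 without untreated replicate 4, 5 without EGFlow replicate 1 and 4 without EGFlow replicate 4, but 26 with untreated and Fc libraries together as control and 14 with only the EGFlow and untreated libraries in the fit. The log2 fold change was above 0 in 47 genes, with a median of 0.63, and 28 genes had no overlap between groups with EGFlow higher, against 6.68% of all genes. RRP9 was at 45.3, 47.3, 52.3 and 55.1 CPM after EGFlow (2.47-fold, edgeR adjusted p 0.00532). TSR1 was at 130, 161, 161 and 165 CPM (2.05-fold, edgeR adjusted p 0.0049), and BYSL at 47.3, 52.9, 53.6 and 57.8 CPM (2.38-fold, edgeR adjusted p 0.00987), both above all their untreated libraries. Compared directly, the doses gave 0 calls among the 48 genes and 0% of all genes by edgeR and 0 members by DESeq2, and 0 members had an unadjusted p under 0.05, against 2.83% of all genes. The difference between doses had an interval of −0.37 to 0.51 for RRP9 and of −0.29 to 0.63 for DDX21 on the log2 scale.

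**Figure D2:**
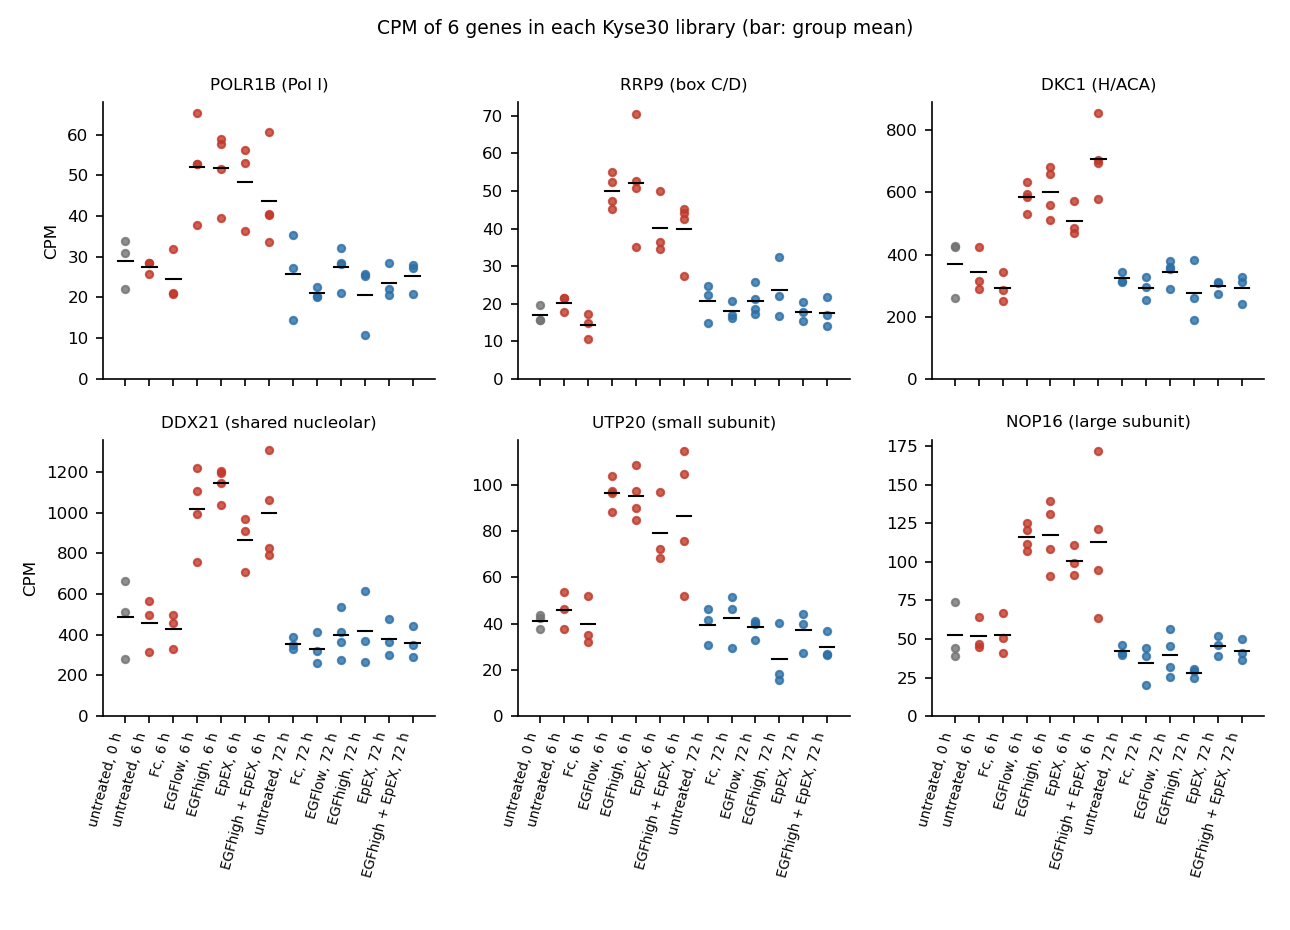
CPM (y axis, linear, from 0) of 1 gene of each step in each Kyse30 library (points, grey for 0 h, red for 6 h and blue for 72 h) by group (x axis), with the group mean as a bar. At 6 h RRP9, DKC1 and DDX21 of all 4 treatments lay above all untreated and Fc libraries, and at 72 h these genes overlapped between EGFhigh and untreated cells.

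EpEX called 1 of the 48 genes, RRP9, which rose. Of all genes, 0.0261% were called higher and 0% lower. RRP9 was at 10.5, 14.9 and 17.4 CPM with Fc and at 34.6, 36.4 and 49.9 CPM with EpEX, 2.82-fold higher with no overlap (log2 fold change 1.5, interval 0.96 to 2.03, edgeR adjusted p 0.0133). Fitted on the EpEX and Fc libraries alone, the call was lost, with 0 genes called, and it was also lost without any 1 Fc library or EpEX replicates 1 or 3, while 2 genes were called without EpEX replicate 4. Log2 fold changes were above 0 in 46 of the 48 genes, with a median of 0.57, and an unadjusted p under 0.05 was reached by 24 of them, against 9.45% of all genes. The count of calls was 6 by DESeq2 and 7 with untreated and Fc libraries together as control. In 20 genes all EpEX libraries exceeded all Fc libraries, against 6.79% of all genes. By step the median was 0.32 for Pol I, 0.36 for box C/D, 0.45 for H/ACA, 0.42 for the shared proteins, 0.63 for the small subunit and 0.58 for the large subunit. TSR1 had a log2 fold change of 0.89 (interval 0.49 to 1.29, edgeR adjusted p 0.0697) and DKC1 one of 0.79 (interval 0.39 to 1.20, edgeR adjusted p 0.106).

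EGFhigh + EpEX called 18 of the 48 genes higher and 0 lower relative to the same Fc libraries, where 3.01% of all genes were higher and 1.51% lower. The 18 held 8 small-subunit and 6 large-subunit factors, 2 of box C/D, and 1 each of H/ACA and the shared proteins. Pol I had 0, with 3 genes at an unadjusted p under 0.05 (19.2% of all genes) and a median log2 fold change of 0.26 beside 0.92 for the small and 0.84 for the large subunit. Groups did not overlap in 26 genes that were higher, against 7.97% of all genes. DKC1 was at 251, 287 and 345 CPM with Fc and at 578, 694, 704 and 857 CPM with the combination (2.41-fold, edgeR adjusted p 0.000257). RRP12, an export factor of both subunits, was at 21.6, 26.4 and 29 CPM with Fc and at 55.4, 85.1, 98.6 and 103 CPM with the combination (3.34-fold, edgeR adjusted p 0.000388). WDR43, a U3 particle component, was at 132, 148 and 201 CPM with Fc and at 308, 369, 399 and 514 CPM with the combination (2.48-fold, edgeR adjusted p 0.000618). The count of calls was 10 without Fc replicate 1, 7 without Fc replicate 4 and 11 without replicate 2 of the combination, while it was 22 without Fc replicate 3. With only the combination and Fc libraries in the fit it was 9. In DKC1, RRP12 and WDR43 the lowest library of the combination exceeded the highest Fc library.

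The large-subunit genes BOP1, PES1, RRS1, GNL3 and MRTO4 were called with the combination but not with EGFhigh, which was measured against other controls. PES1, singled out after its values were seen, was at 31.3, 31.9 and 47.0 CPM with Fc and at 73.2, 114, 126 and 162 CPM with the combination (log2 fold change 1.70, edgeR adjusted p 0.00188). Its Fc libraries all lay below its untreated ones, with a log2 fold change of −0.66 between them (interval −1.34 to 0.01). Compared directly with EGFhigh, the combination gave 0 calls among the 48 genes and 0% of all genes, with an unadjusted p under 0.05 in 5 members and in 3.76% of all genes, and 0 members called by DESeq2. For PES1 this difference was 0.66 (interval 0.09 to 1.24). Fc against untreated cells also gave 0 calls by edgeR or DESeq2 (0% of all genes), 0 members with an unadjusted p under 0.05 (2.83% of all genes) and a median log2 fold change of −0.15.

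**Figure D3:**
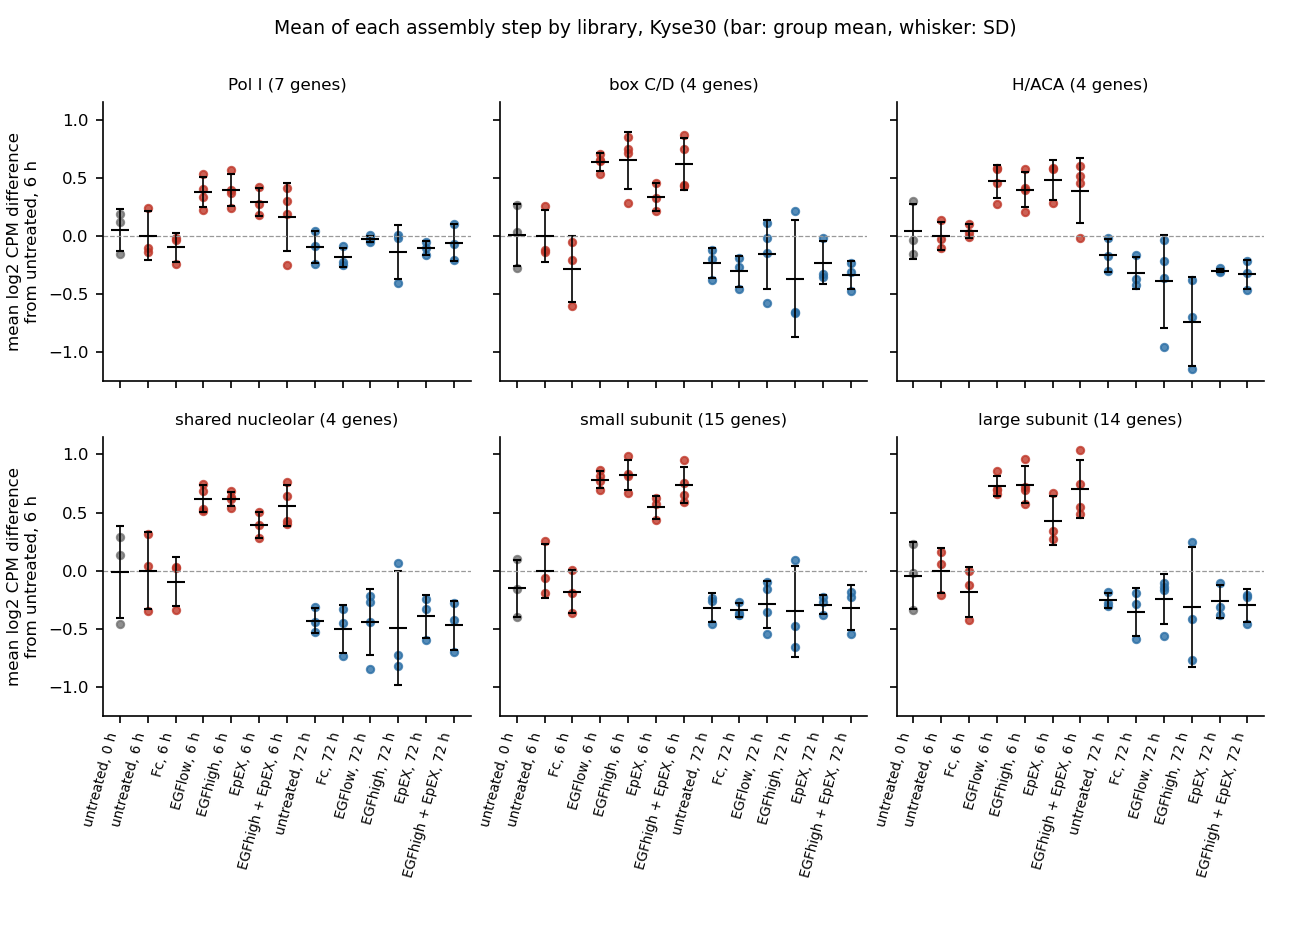
Mean log2 CPM of the genes of each step relative to the untreated 6 h mean (y axis, log2 scale) in each Kyse30 library (points) by group (x axis). Small- and large-subunit means of all treated 6 h libraries lay above those of all untreated and Fc libraries, while those of the other 4 steps overlapped. For box C/D, H/ACA and the shared proteins the overlap came from 1 treated library each. For box C/D and the shared proteins it also rested on 1 control library.

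Averaged over the 15 small-subunit genes, Kyse30 libraries treated for 6 h lay between 0.435 and 0.986 log2 units above the untreated mean, while untreated and Fc libraries at 6 h lay between −0.363 and 0.256. Large-subunit means ran from 0.274 to 1.04 after treatment and from −0.427 to 0.156 without. The treated and control libraries were separate in both subunit steps and overlapped in the other 4. Pol I means ran from −0.255 to 0.568 after treatment and from −0.242 to 0.241 without. For box C/D the lowest treated library was at 0.215 and the highest control library at 0.260, for H/ACA they were at −0.0186 and 0.133, and for the shared proteins at 0.279 and 0.311. In each of these 3 steps the overlap came from 1 treated library. This was replicate 4 of EpEX for box C/D and the shared proteins and replicate 3 of EGFhigh + EpEX for H/ACA, where every other treated library was at 0.205 or above. For box C/D and the shared proteins the overlap also rested on 1 control library, untreated replicate 3, where Fc libraries reached at most −0.0517 and 0.0333.

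At 72 h, 0 of the 48 genes were called in any of the 4 Kyse30 treatments. The share of all genes called was 0% for EGFlow, 6.2% for EGFhigh, 0% for EpEX and 0% for the combination. An unadjusted p under 0.05 was reached by 0, 4, 1 and 1 of the 48 genes, against 2.86%, 19.4%, 3.61% and 3.92% of all genes, and DESeq2 called 0 members in each. Median log2 fold changes were 0.03, −0.01, 0.06 and 0.02. With untreated and Fc libraries together as control EGFhigh called 2 genes, both lower. The mean over the 4 H/ACA genes with EGFhigh ran from −1.14 to −0.378, below the untreated libraries at −0.307 to −0.0192, and overlapped the Fc libraries at −0.426 to −0.163. Its lowest library, replicate 1, held NOP10 at 7.11 CPM, where the other 2 had 131 and 113 CPM. GAR1 in replicate 1, at 18.7 CPM, lay below all untreated libraries at 72 h. DKC1, at 382 CPM, and NHP2, at 158 CPM, lay above all of them in that replicate. In replicate 1 of EGFlow at 72 h NOP10 was at 14.8 CPM. The combination against EGFhigh at 72 h called 0 members by edgeR and DESeq2 where 3.58% of all genes were called, with 2 members and 16.2% of all genes at an unadjusted p under 0.05.

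The EGFhigh response at 72 h was set against that at 6 h by an interaction term. It was lower for 46 of the 48 genes, with a median difference of −0.74 where the median of all genes was 0.01, and 2 genes were called, both lower, against 0.515% of all genes lower and 0.495% higher. UTP20, a scaffold of the small-subunit processome, was at 37.7, 46.2 and 53.7 CPM untreated and at 85.0, 90.1, 97.5 and 109 CPM with EGFhigh at 6 h. At 72 h it was at 30.7, 41.8 and 46.2 CPM untreated and at 15.5, 18.1 and 40.1 CPM with EGFhigh. Its difference in response was −1.73 (interval −2.48 to −0.99, edgeR adjusted p 0.0106). NOP16 was at 39.9, 40.7 and 46.0 CPM untreated and at 24.8, 29.5 and 30.3 CPM with EGFhigh at 72 h, a difference in response of −1.76 (interval −2.53 to −0.99, edgeR adjusted p 0.0129). NOP16 was thus above its control in all EGFhigh libraries at 6 h and below it in all at 72 h. Replicate 1 of EGFhigh at 72 h had a mean over the 48 genes of 0.028, where the other 2 replicates were at −0.673 and −0.421. Without it 9 genes were called, without either of the others 1, and without untreated replicate 4 of 6 h 0.

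Untreated Kyse30 cells at 6 h and at 0 h gave 0 calls among the 48 genes by edgeR and by DESeq2 (0% of all genes), 0 members with an unadjusted p under 0.05 (2.31% of all genes) and a median log2 fold change of −0.01. Between 6 h and 72 h without treatment 1 gene was called, NPM1, which fell, against 0.775% of all genes lower and 0.775% higher. It was at 1999, 2141 and 2214 CPM at 6 h and at 1191, 1219 and 1373 CPM at 72 h (log2 fold change −0.75, interval −1.06 to −0.44, edgeR adjusted p 0.00697). These groups did not overlap, as in 9 of the 48 genes with 72 h lower, against 10.1% of all genes.

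In FaDu the same question was put to 2 libraries a group. EGFhigh at 6 h raised 7 of the 48 genes and lowered 0, against 2.29% of 16022 genes higher and 0.774% lower. These were DDX21, the small-subunit factors WDR43, RRP12, BYSL and PNO1, and the large-subunit factors NOC3L and GNL2, with 0 calls in Pol I, box C/D and H/ACA, where 0, 1 and 2 genes had an unadjusted p under 0.05 (14.1% of all genes). DDX21 was at 1073 and 1113 CPM untreated and at 2037 and 2083 CPM with EGFhigh (1.88-fold, edgeR adjusted p 0.000517). RRP12 was at 52.7 and 65.8 CPM untreated and at 108 and 130 CPM with EGFhigh (2.0-fold, edgeR adjusted p 0.00759). BYSL was at 43 and 49.0 CPM untreated and at 86.4 and 86.7 CPM with EGFhigh (1.88-fold, edgeR adjusted p 0.00947). Each of these 3 genes was separate between the groups, as were 34 of the 48 with EGFhigh higher, against 20.3% of all genes. RRP9, called in Kyse30, was at 47.2 and 61.6 CPM untreated and at 57.1 and 58.1 CPM with EGFhigh (log2 fold change 0.08, interval −0.32 to 0.49).

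EGFlow raised 6 of the 48 genes in FaDu, DDX21, WDR43, RRP12, BYSL, PNO1 and GNL2, and lowered 0, against 2.55% of all genes higher and 0.899% lower. DDX21 was at 2033 and 2075 CPM (1.88-fold, edgeR adjusted p 0.000487), BYSL was 1.82-fold higher (edgeR adjusted p 0.0126) and RRP12 was 1.77-fold higher (edgeR adjusted p 0.0252). Both EGFlow libraries exceeded both untreated ones in 36 of the 48 genes, against 20.7% of all genes. EpEX raised 5, DDX21, RRP12, PNO1, NOC3L and GNL2, and lowered 0, against 2.45% higher and 1.04% lower. DDX21 was at 1111 and 1142 CPM with Fc and at 2080 and 2126 CPM with EpEX (1.87-fold, edgeR adjusted p 0.000528). RRP12 was at 60.9 and 66.9 CPM with Fc and at 112 and 140 CPM with EpEX (1.97-fold, edgeR adjusted p 0.00768), and PNO1, a small-subunit factor, at 50.2 and 61.9 CPM and at 92.6 and 98.1 CPM (1.70-fold, edgeR adjusted p 0.0235). In 24 genes EpEX was higher with no overlap, against 19.6% of all genes. With only the EpEX and Fc libraries in the fit 0 genes were called for EpEX, while DESeq2 called 8, and for EGFhigh the fit of only its groups called 4. With all FaDu libraries in the fit 0 of the 48 genes were called for EGFlow, EGFhigh or EpEX, and with any 1 of the 4 libraries of a comparison left out between 1 and 4 were, in fits where the lone library left in a group was assumed to vary like the other groups. In the FaDu libraries of replicates 1 and 2 the summed level of the 48 genes at 6 h lay the other way, at 7899 and 7753 CPM untreated, 5152 CPM in the 1 EGFlow library and 5999 and 4699 CPM with EGFhigh, and at 8004 and 8678 CPM with Fc and 5742 CPM in the 1 EpEX library. In replicates 3 and 4 it was 9490 and 9931 CPM untreated, 11970 and 11645 CPM with EGFlow and 12612 and 12251 CPM with EGFhigh. With Fc it was 9545 and 10922 CPM there and with EpEX 12386 and 11309 CPM. Over all libraries of replicates 1 and 2 COL1A1 ran from 3.09 to 2352 CPM (median 10.1) and EPCAM from 5.06 to 623 CPM (median 244). In replicates 3 and 4 COL1A1 reached at most 12.9 CPM and EPCAM was at least 279 CPM. Whether these markers bear on the opposite direction of the summed level was not tested.

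**Figure D4:**
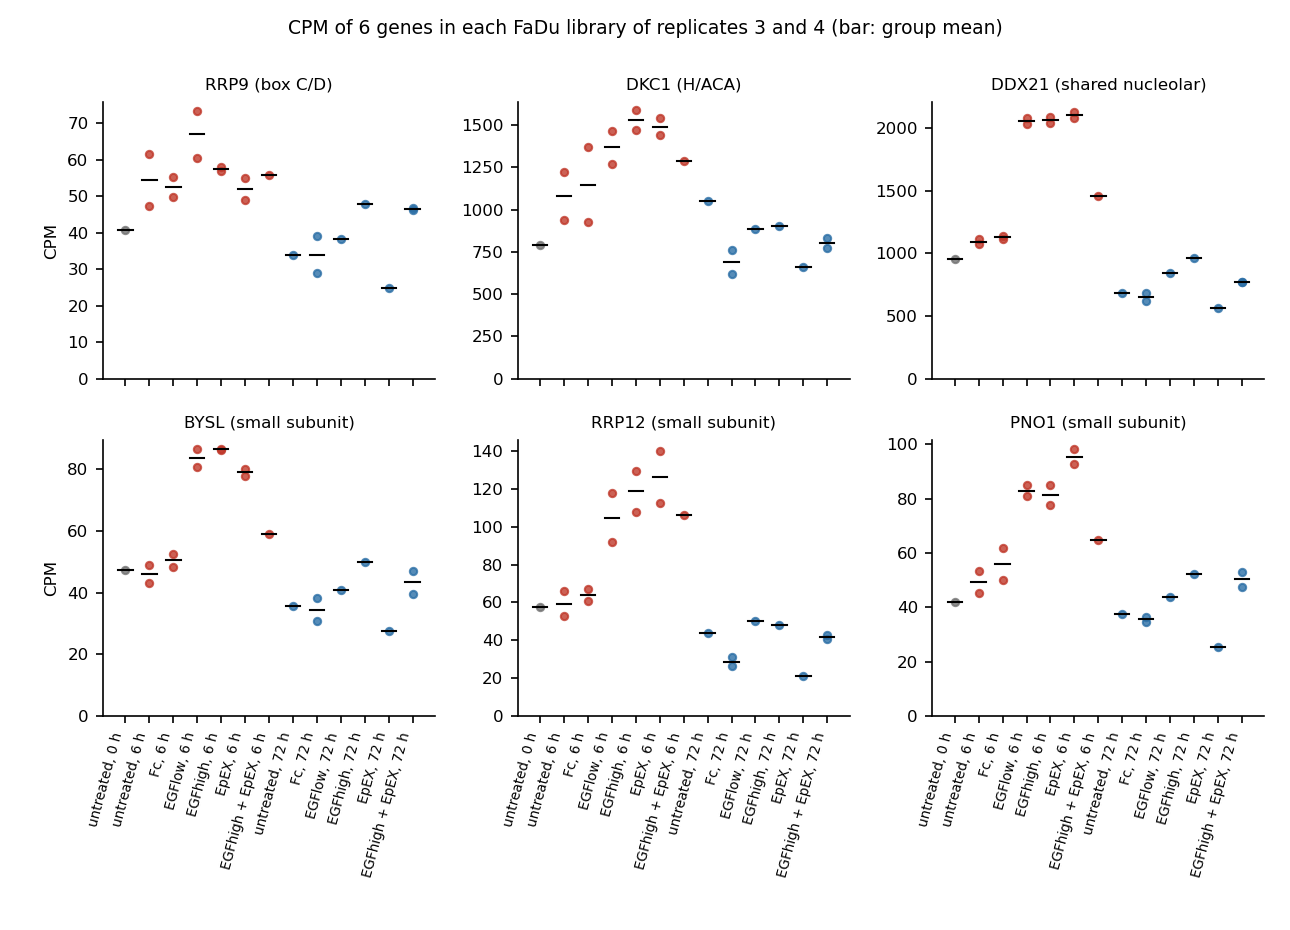
CPM (y axis, linear, from 0) of RRP9, DKC1, DDX21, BYSL, RRP12 and PNO1 in each FaDu library of replicates 3 and 4 (points) by group (x axis). A bar marks the group mean, also in groups of 1 library. DDX21 lay between 2033 and 2126 CPM after EGF alone or EpEX alone at 6 h and between 1073 and 1142 CPM in untreated and Fc libraries at 6 h.

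By step, the median log2 fold change after EGFhigh in FaDu was 0.06 for Pol I, 0.19 for box C/D, 0.39 for H/ACA, 0.39 for the shared proteins, 0.48 for the small subunit and 0.37 for the large subunit. The EGFhigh response of Kyse30 minus that of FaDu called 0 of the 48 genes by edgeR and DESeq2, where 0.0611% of 19634 genes were called, and 2 members (4.91% of all genes) had an unadjusted p under 0.05. For RRP9 this difference was 1.32 (interval 0.56 to 2.07, edgeR adjusted p 0.38). At 72 h the combination against Fc called 0 members in FaDu by edgeR and DESeq2, where 0.818% of all genes were called, and 3 members (6.78% of all genes) had an unadjusted p under 0.05. In 31 of the 48 genes both libraries of the combination exceeded both Fc libraries, against 20.2% of all genes, and the mean over the 48 genes was −0.196 with the combination and −0.403 with Fc relative to untreated cells at 6 h.

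With Fc alone, FaDu had 5 of the 48 genes lower at 72 h than at 6 h and 0 higher, against 1.91% of all genes lower and 0.974% higher. They were DKC1, DDX21, RRP12, TSR1 and NOB1. DDX21 was at 1111 and 1142 CPM at 6 h and at 623 and 680 CPM at 72 h (log2 fold change −0.79, edgeR adjusted p 0.0017). RRP12 was at 26.4 and 31.0 CPM at 72 h (log2 fold change −1.16, edgeR adjusted p 0.00271), and DKC1 was at 924 and 1368 CPM at 6 h and at 620 and 762 CPM at 72 h (log2 fold change −0.73, edgeR adjusted p 0.0417). Both 72 h libraries were below both 6 h libraries in 37 of the 48 genes, against 22.6% of all genes. The call count was 0 with all FaDu libraries and between 1 and 3 with 1 library left out, under the same assumption for a lone library.

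The lines also differed in untreated cells at 6 h. Relative to FaDu, Kyse30 had 22 of the 48 genes lower and 1 higher, where 10.4% of all genes were called lower and 12% higher. All 4 box C/D genes were lower, as were 8 of 14 large-subunit and 6 of 15 small-subunit genes, NOLC1 and DDX21, DKC1, and POLR1A of Pol I. DKC1 was at 290, 316 and 425 CPM in Kyse30 and at 936 and 1224 CPM in FaDu (log2 fold change −1.68, edgeR adjusted p 5.21e-08), each line scaled on its own. NOL10, a small-subunit factor, had a log2 fold change of −1.39 (edgeR adjusted p 3.02e-06). NPM1 was the gene that was higher, at 1999, 2141 and 2214 CPM in Kyse30 and at 538 and 576 CPM in FaDu (3.72-fold, edgeR adjusted p 1.01e-11). With all FaDu libraries in the fit, 4 of the 48 genes were called. Reads that could not be placed uniquely made up 24.6% to 43.6% in Kyse30 libraries and 41.0% to 51.3% in FaDu libraries, and their part in this difference was not tested.

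A further 122 genes of the pathway, listed by function, were all tested. EGFlow at 6 h in Kyse30 raised 6, EGFhigh 12, EpEX 0 (37 at an unadjusted p under 0.05) and the combination 30, and 0 fell. The shares of all genes called higher were 0.814%, 1.34%, 0.0261% and 3.01%, and 9.45% had an unadjusted p under 0.05 for EpEX. The 122 genes had median log2 fold changes of 0.37, 0.41, 0.35 and 0.48. Of their 14 Pol I genes, 0 were called for EGFlow, EGFhigh or EpEX and 2 for the combination, POLR1G (log2 fold change 1.69, edgeR adjusted p 0.00731) and POLR2E, a subunit that all 3 nuclear polymerases share (1.01, edgeR adjusted p 0.0181). NIFK, a large-subunit factor, was called for both EGF doses (log2 fold change 1.13 with EGFhigh, edgeR adjusted p 0.0032), as was WDR3 of the small-subunit processome (1.20, edgeR adjusted p 0.0034). At 72 h EGFhigh lowered 2, where 6.2% of all genes were called in either direction. These were NAF1, an assembly factor of H/ACA particles (log2 fold change −1.82, edgeR adjusted p 0.00202), and BMS1, a GTPase of the small subunit (−0.76, edgeR adjusted p 0.0089). In FaDu EGFlow raised 4 of the 122 genes, EGFhigh 3 and EpEX 3, shares near the 2.55%, 2.29% and 2.45% of all genes. Structural proteins of the cytosolic ribosome, 79 of which were tested, gave 0 calls by edgeR for EGFlow, EGFhigh, EpEX and the combination at 6 h in Kyse30, with 1, 1, 0 and 13 at an unadjusted p under 0.05 (13.7%, 15.2%, 9.45% and 19.2% of all genes) and medians between −0.19 and −0.10, and of 77 mitochondrial ribosomal proteins 0, 0, 0 and 5 were called, the 5 where 3.01% of all genes were called higher. Among 6 known targets of EGF signalling, EGFhigh at 6 h raised HBEGF in Kyse30 (log2 fold change 2.43) and in FaDu (3.16), lowered EGR1 in Kyse30 (−1.19) and raised FOSL1 and PHLDA1 in FaDu.

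Across the 40 genes with a promoter window, an E-box was in 7 of 11 genes called after EGFhigh at 6 h in Kyse30 and in 12 of 29 genes not called. ETS letters were in 5 of 11 and 12 of 29. These counts are descriptions and were not tested.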

How the data were processed

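The deposited values were counts of reads per gene and library, made by the authors with STAR and HTSeq (versions not given in the sources used here) on GRCh38, per the labels and the submitters' processing notes, from QuantSeq 3′ FWD libraries. The strand setting of the counting was not given in the sources used here. Rows that name no gene were left out of library sizes. Symbols came from a gene name table (57754 of 58395 identifiers), with GENCODE release 29 for the rest and for coordinates. Of the 48 genes, 11 have named pseudogenes and 9 share their last 500 bases with another gene, so that their counts are less certain.

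Counts were analysed with edgeR 4.0.16 in R 4.3.3 (trimmed mean normalization, filterByExpr with a minimum count of 10 and total of 15, quasi-likelihood test, Benjamini-Hochberg adjustment over all genes tested) in 3 fits, of Kyse30, of FaDu replicates 3 and 4, and of both. Called genes had a log2 fold change beyond 0.5 in either direction and an adjusted p no higher than 0.05. Intervals are nominal 95% intervals of the log2 fold change, built with the normal distribution. They are narrower than the quasi-likelihood test behind the p-values would give, most of all in FaDu with its fewer libraries. CPM of each ribosome biogenesis gene used the normalized library sizes, and step means used log2 CPM with a prior count of 2. CPM of the markers and of a count of 3 used the gene counts of each library without normalization. The summed level of the ribosome biogenesis genes was also given per gene counts without normalization. There were 22 comparisons. The CPM of a count of 3 rests on the gene counts of 1 library at a time and takes no account of the spread between libraries.

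Alternatives were DESeq2 1.42.0, its kind of size factors (RLE), no filter, a mean of at least 5 CPM, a replicate block, all FaDu libraries, fits of only the groups compared, untreated and Fc libraries together as control, and 68 fits that each left out 1 library and kept the filter and the dispersion trend of the full fit. Fits were also run on simulated data, whose outcome is not given here and on which no statement of the text rests. Genes named in the text were, for each step, the 2 with the lowest and the 1 with the highest adjusted p for EGFhigh at 6 h in Kyse30, every gene called for EpEX there or for EGFhigh at 72 h, and the 3 with the lowest adjusted p in each other comparison with calls; others were chosen after their values were seen. The 48 genes and the lists were chosen with earlier results of these data known. Promoters came from RefSeq (GRCh38.p14).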

Additional observations from a re-analysis of the deposited data

Results flagged for a closer look

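In groups of 4 Kyse30 libraries, 5 gene values and 1 step mean had a library set apart from the others, measured as the gap to the nearest library over the range of the group; 120 such groups were examined, and chance sets a library apart in about 5% of them. RRP9 after EGFhigh + EpEX at 6 h was at 27.3 CPM in replicate 1 and between 42.6 and 45.2 CPM in the others (ratio 0.851). NOP56 after EGFlow at 6 h was at 359 CPM in replicate 2 and between 278 and 290 CPM in the others (ratio 0.851). TSR1 after EGFlow at 6 h was at 130 CPM in replicate 4 and between 161 and 165 CPM in the others (ratio 0.877). At 72 h after EGFlow, NPM1 was at 999 CPM in replicate 4 and between 1157 and 1165 CPM in the others (ratio 0.949). In the same group UTP20 was at 33.0 CPM in replicate 3 and between 39.8 and 41.1 CPM in the others (ratio 0.843), and the large-subunit mean was at −0.56 in replicate 3 and between −0.17 and −0.11 in the others (ratio 0.86).

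The response of Kyse30 to EGFhigh differed between 72 h and 6 h in 2 genes by the interaction term of edgeR. The difference was −1.73 for UTP20 and −1.76 for NOP16 on the log2 scale.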

How the results depend on the processing

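Counts of called genes among the 48 moved by over 1.5 times under these settings. With only the groups compared, EGFlow at 6 h in Kyse30 had 14, EpEX 0 and EGFhigh + EpEX 9, and in FaDu EGFhigh had 4, EpEX 0 and Fc at 72 h against 6 h 2. With untreated and Fc libraries together as control, EGFlow had 26, EGFhigh 28 and EpEX 7 at 6 h, and EGFhigh 2 at 72 h, both lower. EpEX in Kyse30 also had 4 with no filter, 2 with a mean of at least 5 CPM and 6 by DESeq2. The EGFhigh response at 72 h against 6 h had 4 with no filter, 4 with a mean of at least 5 CPM and 4 by DESeq2. In FaDu EpEX had 8 with a mean of at least 5 CPM and 8 by DESeq2, and Fc at 72 h against 6 h had 3 with RLE size factors. With all FaDu libraries EGFlow, EGFhigh, EpEX and Fc at 72 h against 6 h had 0 and the comparison of lines had 4. The cause was not tested.

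With 1 library left out, counts ran from 1 to 10 for EGFlow, 2 to 12 for EGFhigh, 0 to 2 for EpEX and 7 to 22 for EGFhigh + EpEX at 6 h in Kyse30, from 0 to 1 for EGFhigh at 72 h (1 without its replicate 1) and from 0 to 9 for the difference in response. In FaDu they ran from 1 to 2 for EGFlow, 1 to 4 for EGFhigh, 1 to 2 for EpEX and 1 to 3 for Fc at 72 h against 6 h, and from 16 to 21 for the comparison of lines. Among named genes, 215 values kept their side of the threshold, 46 fell short of it and 8 changed sign, all for EGFhigh at 6 h, where log2 fold changes ran from −0.139 to 0.310 for UBTF, −0.0897 to 0.241 for FBL, −0.00103 to 0.0722 for NPM1 and −0.295 to 0.0619 for NHP2.

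Replicate numbers were not taken as pairs, since the labels tie them to no shared culture or day. The mean correlation of deviations between libraries of the same number was 0.0633 in Kyse30 (lowest −0.131) and 0.0713 in FaDu (lowest −0.036). Between libraries of other numbers the mean was −0.0216 in Kyse30 and −0.0713 in FaDu. By mean correlation 38 of 43 and 14 of 14 libraries were nearest to those of their own number, a hint of pairing from the data. With the replicate block EpEX in Kyse30 had 4 called genes, EpEX in FaDu 8 and Fc at 72 h against 6 h 8, and all 43 named results kept their direction and side of the threshold. RLE size factors also kept all 43, and DESeq2 kept 42. FaDu groups held 1 or 2 libraries, which limits their precision.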
